A study of Mus musculus with 30 samples.

Results

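The 10 genes described here, Pdgfra, Neu4, Cspg4, Olig1, Olig2, Sox10, Gpr17, C1ql1, Tnr and Vcan, mark oligodendrocyte precursor cells and the early steps of the oligodendrocyte lineage. They were taken as a list of names, and all 10 were found among the 18240 genes of the deposited table. Each of the 10 passed the filter on low values, an average of 10 or more across the libraries, that left 16824 genes for testing. Bulk RNA of prefrontal cortex was sequenced from C57BL/6J mice aged 40 days after birth. Every drug-treated mouse was heterozygous (HT) for Adnp, the gene of a chromatin protein that is mutated in people with a syndromic form of autism. The HT mice were given fluoxetine, a serotonin reuptake inhibitor (4 female and 4 male libraries), lithium, a mood stabilizer (3 female and 4 male libraries), or vehicle (4 female and 3 male libraries). Wild-type (WT) mice were given vehicle (4 female and 4 male libraries). No drug-treated WT library was analysed here, so each drug was seen on the HT background alone. The sources used here give neither the nature of the mutant Adnp allele nor drug doses and durations, and do not say whether each library came from a separate mouse. P-values therefore measure the spread between these libraries, which may be technical in part.

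Oligodendrocyte precursors are dividing glial cells that persist in the adult cortex. Platelet-derived growth factor A, acting on the receptor that Pdgfra encodes, drives their division and survival, and the transcription factors of Olig1, Olig2 and Sox10 give them their lineage identity. When they commit to differentiate they pass through a stage high in Gpr17, lose the receptor and the surface proteoglycan of Cspg4, and later make myelin. The other genes act at the surface or outside the cell: Neu4 encodes a sialidase that removes sialic acids from glycans, C1ql1 a secreted C1q-like protein, Tnr tenascin-R and Vcan versican, which are matrix molecules. Some of these transcripts are shared with other cells. Fibroblasts of the meninges also make Pdgfra and Vcan, pericytes make Cspg4, and mature oligodendrocytes keep Olig1, Olig2 and Sox10.

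Coordinates are from GENCODE M21, build GRCm38. Pdgfra is on chromosome 5 at 75152292 to 75198215, plus strand, and Neu4 on chromosome 1 at 94020451 to 94028334, plus strand. Olig2 (chromosome 16, 91225457 to 91228677) and Olig1 (chromosome 16, 91269772 to 91271933) are neighbours on the plus strand, 41095 bases apart. The remaining genes are Tnr (chromosome 1, 159523769 to 159931729, plus strand), Cspg4 (chromosome 9, 56865033 to 56899870, plus strand), C1ql1 (chromosome 11, 102939264 to 102946688, minus strand), Vcan (chromosome 13, 89655312 to 89742509, minus strand) and Sox10 (chromosome 15, 79154908 to 79165240, minus strand), with Gpr17 given further on. All are protein-coding. Exons of Pdgfra, Olig1, Gpr17 and Tnr overlap exons of genes on the opposite strand, by 157 to 456 bases each. How the counting used strand is not given, so reads of such partners cannot be told apart there.

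Pdgfra and Neu4 carried the genotype difference described below, so the sequence upstream of each is shown (RefSeq, GRCm38.p6, plus strand, 5′ to 3′). The Pdgfra stretch is chr5:75152001-75152250, the 250 bases before the RefSeq start site. The Neu4 stretch is chr1:94020243-94020450, the 208 bases before the first exon in GENCODE. Capitals mark matches to the motifs searched.
Pdgfra: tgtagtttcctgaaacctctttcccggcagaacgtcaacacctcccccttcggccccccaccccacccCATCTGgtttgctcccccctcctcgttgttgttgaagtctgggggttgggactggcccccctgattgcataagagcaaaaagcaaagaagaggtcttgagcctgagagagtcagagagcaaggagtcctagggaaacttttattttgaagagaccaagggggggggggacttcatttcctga
Neu4: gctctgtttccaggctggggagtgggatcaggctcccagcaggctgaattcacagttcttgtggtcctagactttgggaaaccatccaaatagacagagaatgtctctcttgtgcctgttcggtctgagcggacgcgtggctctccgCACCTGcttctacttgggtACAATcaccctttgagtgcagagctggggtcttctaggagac
Motifs were searched on both strands, with forms chosen after the results were known. For E-boxes, which basic helix-loop-helix factors such as those of the Olig genes bind, the letters were CAGCTG in the first form, with CAGATG as a second form searched, CACCTG as the next form and finally the form CATATG. For Sox factors the core letters searched were ACAAT, and separately from it the longer core ACAAAG. The Pdgfra stretch held 1 match, to CAGATG read on the minus strand, and 14.4% of 32851 mouse promoters held that motif in a window of the same length. The Neu4 stretch held 1 match to CACCTG, found in 14.9% of promoters, and 1 to ACAAT, found in 24.4%. These matches are common and describe letters only.

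Levels spanned a wide range. Values are normalized read counts, that is counts scaled by a size factor for each library, and between genes they are compared per kilobase of exon. On that scale Olig1 averaged 774.4 and Tnr 636.5 over the 30 libraries, followed by Gpr17 (386.8), Sox10 (243.9), Olig2 (197.3), Pdgfra (150.1) and C1ql1 (131.9). The levels of Neu4 (53.37), Vcan (51.87) and Cspg4 (48.29) per kilobase overlapped among libraries, from 44.5 to 70.27, 38.91 to 67.01 and 38.19 to 61.61. Reads behind a single value were fewest for C1ql1, at 119 to 289 per library, and Neu4, at 188 to 313, against 5578 to 10115 for Tnr. Libraries held 23771758 to 34307061 reads in all.

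**Figure D1:**
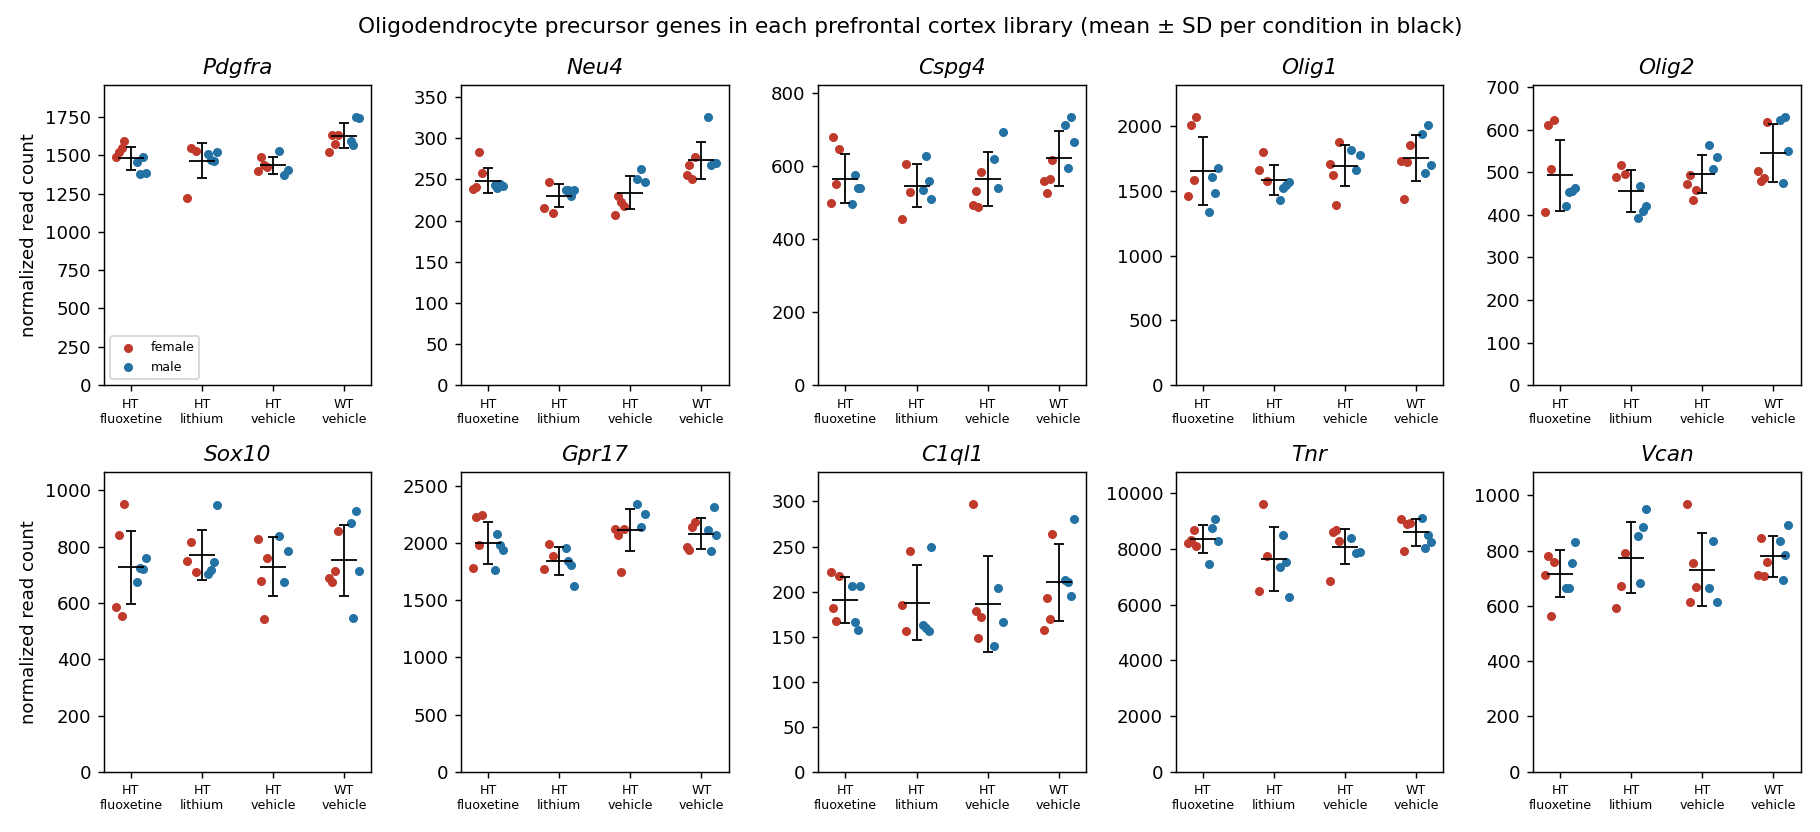
Normalized read count (y axis, from 0) of each of the 10 genes in the 30 libraries, by condition (x axis) and sex (colour), with the mean and SD of each condition in black. For Pdgfra 17 of 22 HT libraries and for Neu4 19 of 22 lie below the lowest WT library, against 1 to 12 of 22 for the other genes. The share of all genes with such counts is not given.

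Before the genotype comparison, the tissue itself was checked against markers of nearby regions and other cells. The summed level of 6 striatal markers ran from 2691 to 23255 across libraries, 8.64-fold, and that of 7 olfactory bulb and neuroblast markers from 2387 to 17099, 7.16-fold. The 15 myelin genes ran from 59467 to 155836. These sums varied within every condition, and their part in the results below was not tested except where a value is given. HT vehicle female 1 and HT lithium male 4, which had the lowest sums of normalized counts over all genes, also had the highest olfactory bulb sums, 16358 and 17099. Results that lead below are given also without both.

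Between HT vehicle and WT vehicle mice, the receptor gene Pdgfra and the sialidase gene Neu4 were lower in HT cortex in both sexes. In HT vehicle females Pdgfra had 1395, 1486, 1435 and 1426 normalized counts, against 1522, 1635, 1572 and 1629 in WT vehicle females. HT vehicle males had 1530, 1374 and 1402, against 1595, 1567, 1749 and 1740 in WT vehicle males. Within each sex every HT vehicle library was below every WT library. Over both sexes Pdgfra averaged 1435 ± 55.06 in HT vehicle (SD, n = 7) and 1626 ± 81.58 in WT vehicle (SD, n = 8), a log2 fold change of -0.18 (95% confidence interval -0.26 to -0.09, limma adjusted p = 0.0303). Pdgfra thus fell by 11.7% in HT vehicle cortex. In a bulk sample, fewer cells of a type and less RNA per cell cannot be told apart.

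Neu4 had 206.3, 230.4, 223.2 and 218.3 normalized counts in HT vehicle females, against 255.5, 267.9, 251.0 and 276.8 in WT vehicle females. Its counts were 250.1, 262.3 and 246.5 in HT vehicle males, against 325.9, 268.1, 269.7 and 270.0 in WT vehicle males. Again the libraries of the genotypes did not overlap within either sex, although HT males reached the level of the lowest WT females. The mean was 233.9 ± 19.82 in HT vehicle (SD, n = 7) and 273.1 ± 22.9 in WT vehicle (SD, n = 8), a log2 fold change of -0.21 (interval -0.31 to -0.10, limma adjusted p = 0.0466), and Neu4 fell by 13.5%. Of the 10 genes, 2 were thus called lower and 0 higher in HT vehicle, where 0.731% of all genes tested were called. Likewise 2 of 10, Pdgfra and Neu4, had libraries that did not overlap within both sexes, a rule added after the data were seen that 0.719% of genes tested met in either direction.

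Both calls in this comparison were close to the threshold of 0.05, and that of Neu4 depended on the method. Neu4 missed the threshold in edgeR, at an adjusted p of 0.0515, in DESeq2 (0.0657), and in limma with no filter on low values (0.0511), a mean of at least 50 (0.0569), quantile normalization (0.0795) or only the groups compared in the fit (0.147). Pdgfra was called by edgeR and DESeq2 and was not called with quantile normalization (limma adjusted p = 0.0639). Pdgfra was not called without any 1 of HT vehicle females 1, 3 and 4, HT vehicle males 2 and 3, WT females 2, 3 and 4 or WT males 3 and 4 (limma adjusted p of 0.0522 to 0.113), while its log2 fold change stayed between -0.20 and -0.16. Neu4 was not called without any 1 of HT vehicle females 1, 3 and 4, HT vehicle males 1, 2 and 3, the 4 WT females or WT males 1 and 4 (0.0521 to 0.147, log2 fold change -0.22 to -0.17). With HT vehicle female 1 and HT lithium male 4 both left out, the adjusted p was 0.0643 for Pdgfra and 0.117 for Neu4. With the replicate number as a block it was 0.0483 for Pdgfra and 0.0853 for Neu4.

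The other genes had smaller or more variable differences between HT vehicle and WT vehicle mice, and none was called. Cspg4, the NG2 proteoglycan gene, had a log2 fold change of -0.12 (interval -0.27 to 0.02), and its libraries spanned 487.5 to 693.2 in HT vehicle and 525.4 to 735 in WT. Among the transcription factors, Olig2 had -0.12 (interval -0.28 to 0.04), Olig1 -0.04 (interval -0.20 to 0.11) and Sox10 -0.03 (interval -0.28 to 0.22). Gpr17, the receptor of committed precursors, had 0.03 (interval -0.08 to 0.15), the only value above 0 among the 10. C1ql1 had the widest interval (-0.50 to 0.10, around -0.20), with HT vehicle libraries at 139.7 to 297.4 and WT libraries at 156.9 to 280.7. The matrix genes Tnr and Vcan had -0.09 (interval -0.23 to 0.05) and -0.11 (interval -0.31 to 0.09). The median of the 10 log2 fold changes was -0.11, beside -0.0010 over all genes tested, of which 49.3% were above 0. Apart from Gpr17, the intervals of these genes include a change as large as the -0.18 of Pdgfra.

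Pdgfra was also lower than in WT under lithium, while its difference under fluoxetine was not called. It had 1487, 1519, 1549 and 1591 normalized counts in HT fluoxetine females and 1453, 1375, 1487 and 1381 in HT fluoxetine males. In HT lithium females it had 1220, 1547 and 1526, and in HT lithium males 1509, 1472, 1460 and 1520. Lithium females included the lowest library of all, 1220, and the others lay close to the HT vehicle range. Against the same WT libraries as above, the log2 fold change of Pdgfra was -0.14 under fluoxetine (interval -0.22 to -0.05, limma adjusted p = 0.0976) and -0.16 under lithium (interval -0.24 to -0.07, adjusted p = 0.0441). The lithium value was -0.10 without HT lithium female 1 (adjusted p = 0.135). The lithium call was also lost without any 1 of the 4 HT lithium males, WT females 2, 3 and 4 or WT males 3 and 4 (limma adjusted p of 0.0512 to 0.0941), and with HT vehicle female 1 and HT lithium male 4 both left out (0.0613). It was lost as well with edgeR (adjusted p = 0.0506), and in limma with the replicate number as a block (0.0562), an additive fit of group and sex (0.0581), quantile normalization (0.115) or only the groups compared (0.141). Under fluoxetine DESeq2 called Pdgfra (adjusted p = 0.0498).

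Neu4 had 238.2, 241.0, 283.4 and 257.3 normalized counts in HT fluoxetine females and 242.9, 240.0, 244.3 and 241.9 in HT fluoxetine males. In HT lithium females it had 215.2, 246.8 and 209.0, and in HT lithium males 237.4, 237.5, 230.2 and 237.3. All lithium libraries were below all WT libraries, whereas fluoxetine females 3 and 4 lay within the WT range. The log2 fold change against WT was -0.13 under fluoxetine (interval -0.23 to -0.03, limma adjusted p = 0.236) and -0.25 under lithium (interval -0.35 to -0.14, adjusted p = 0.00631). The lithium call of Neu4 held without each single library (adjusted p of 0.00283 to 0.0344), and the adjusted p was 0.0117 with HT vehicle female 1 and HT lithium male 4 left out. It also held under the 11 other settings (limma, edgeR or DESeq2 adjusted p of 0.00459 to 0.0499), the highest of these only just under the threshold.

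Of the 10 genes, 0 were called by limma between HT fluoxetine and WT vehicle (1, Pdgfra, by DESeq2), where 1.49% of all genes tested were called, and 2, both lower, between HT lithium and WT vehicle, where 1.97% were called. No gene of the 10 had fluoxetine libraries apart from WT in both sexes (0.832% of genes tested did), and 1, Neu4, had lithium libraries apart from WT in both sexes (1.03% did). Log2 fold changes were below 0 for 10 of 10 genes under fluoxetine (median -0.13) and for 9 of 10 under lithium (median -0.17), Sox10 being the exception at 0.05. Of all genes tested, 49.6% were above 0 under fluoxetine and 49.5% under lithium, and 17.7% had an unadjusted limma p under 0.05 under lithium. Some genes without a call had intervals below 0 under lithium: Olig2 at -0.24 (interval -0.39 to -0.08, limma adjusted p = 0.108), Cspg4 at -0.19 (interval -0.34 to -0.04, adjusted p = 0.18), Tnr at -0.17 (interval -0.32 to -0.03, adjusted p = 0.193) and Gpr17 at -0.17 (interval -0.29 to -0.06, adjusted p = 0.116). Tnr passed the threshold without HT lithium female 2 (limma adjusted p = 0.047).

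All 22 HT libraries were then set against the 8 WT libraries, with the 6 HT groups weighted equally. Every HT library was below the WT median for Pdgfra, and 17 of 22 were below the lowest WT library. For Neu4, 21 of 22 were below the WT median and 19 of 22 below the lowest WT library. Such counts were made for the 10 genes only, so their share over all genes is not given here. They use the same values as the calls and add no support to them. Pdgfra ranged from 1220 to 1591 with a median of 1479 in HT, and from 1522 to 1749 with a median of 1612 in WT. Neu4 ranged from 206.3 to 283.4 with a median of 239.1 in HT, and from 251 to 325.9 with a median of 268.9 in WT. Pdgfra had a log2 fold change of -0.16 (interval -0.23 to -0.09, limma adjusted p = 0.00581) and Neu4 of -0.20 (interval -0.28 to -0.11, adjusted p = 0.00481). These were the 2 of 10 genes called in this comparison, where 2.65% of all genes tested were called. Both were called when any 1 of the 30 libraries was left out (limma adjusted p up to 0.0236 for Pdgfra and 0.0224 for Neu4) and under each of 11 other settings. This comparison shares its WT libraries with the 3 above and holds all their HT libraries, so it is no separate evidence.

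Among the remaining genes, all 8 had a log2 fold change below 0 over all HT libraries, and none was called. They share the same WT libraries and several of them varied together, so the 8 signs are not separate observations. The share of all genes below 0 in this comparison is not given here. Olig2 had -0.17 (interval -0.30 to -0.05, limma adjusted p = 0.157), with 18 of 22 HT libraries below the WT median. Cspg4 had -0.15 (interval -0.27 to -0.03, adjusted p = 0.206), with 16 of 22 below it. Values for C1ql1 (-0.16), Tnr (-0.10), Vcan (-0.09), Olig1 (-0.09), Gpr17 (-0.07) and Sox10 (-0.01) had intervals that included 0. For Sox10, 8 of 22 HT libraries were below the WT median.

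**Figure D2:**
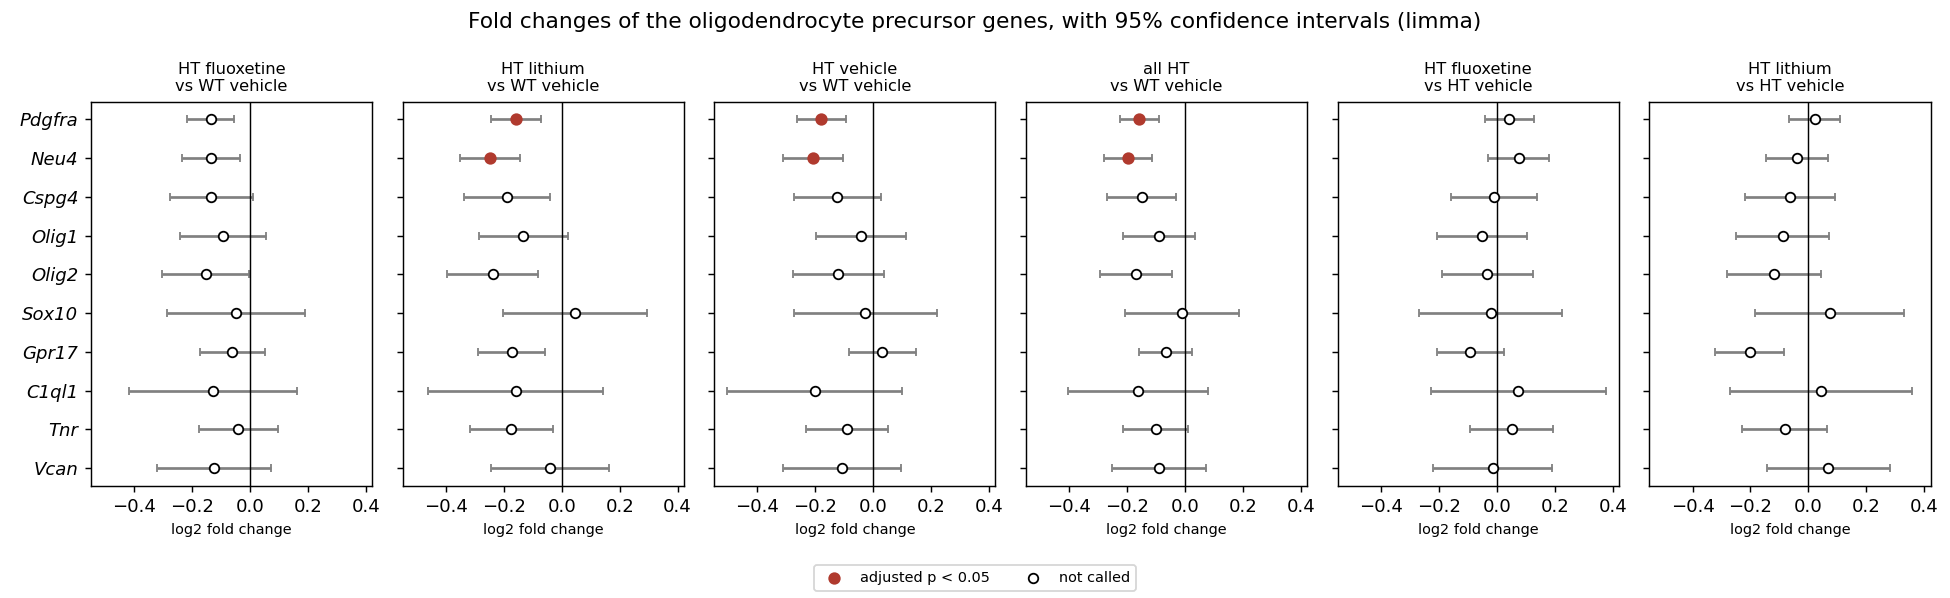
Log2 fold change (x axis) of each gene (rows) with its 95% confidence interval, in 6 comparisons; filled points have an adjusted p under 0.05. Pdgfra and Neu4 are the only filled points, in HT lithium, HT vehicle and all HT against WT vehicle, and the 2 panels on the right, each drug against HT vehicle, hold none.

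Relative to HT vehicle mice, neither drug changed any of the 10 genes past the threshold. Between HT fluoxetine and HT vehicle, 0 of 10 were called, where 0.0357% of all genes tested were called, and between HT lithium and HT vehicle 0 of 10, where 0.0892% were called. The difference between HT fluoxetine and HT vehicle was 0.04 for Pdgfra (interval -0.04 to 0.13) and 0.08 for Neu4 (interval -0.03 to 0.18). Between HT lithium and HT vehicle it was 0.02 for Pdgfra (interval -0.07 to 0.11) and -0.04 for Neu4 (interval -0.15 to 0.07). For Pdgfra the upper limits were 0.13 and 0.11, beside a genotype difference of -0.18 with an interval of -0.26 to -0.09. For Neu4 under fluoxetine the upper limit was 0.18, beside a genotype difference of -0.21 with an interval of -0.31 to -0.10. These drug and genotype differences share the HT vehicle libraries, so their errors are linked. How much of the genotype difference a drug offset cannot be read from these limits.

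Gpr17, on chromosome 18 at 31942997 to 31949636 (minus strand), had the largest difference of the 10 genes between HT lithium and HT vehicle. It had 1772, 1991 and 1887 normalized counts in HT lithium females, against 2124, 2070, 1746 and 2118 in HT vehicle females. HT lithium males had 1958, 1842, 1810 and 1624, against 2340, 2137 and 2250 in HT vehicle males. The male libraries did not overlap, and the female libraries did through HT vehicle female 3. With so few libraries such a separation can arise by chance, and its share over all genes is not given here. The log2 fold change of Gpr17 was -0.20 (interval -0.32 to -0.08), and with a limma adjusted p = 0.528 it was not called. The myelin sum was also lower under lithium in males, at 86091, 93151, 90591 and 84081 in HT lithium males, against 136217, 110862 and 131246 in HT vehicle males. In females it was not: HT lithium females had 108894, 129860 and 87923, against 109235, 96497, 70312 and 122668 in HT vehicle females. The striatal sum was 2691 to 3337 in HT lithium males, against 14658, 3212 and 14750 in HT vehicle males, and 6122, 9424 and 2834 in HT lithium females, against 2923, 3765, 3109 and 15827 in HT vehicle females. Over all libraries Gpr17 followed both lists, as described below, and their part in the lithium value was not tested. Between HT fluoxetine and HT lithium, 0 of 10 genes were called, as were 0% of all genes tested by limma, which gave 1154 genes an unadjusted p under 0.05 and called 4 without HT lithium female 1. EdgeR also called 0 genes and DESeq2 13, of which none was among the 10.

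Averaged over the 4 conditions, 0 of 10 were called between male and female libraries, where 0.214% of all genes tested were called. Neu4 had a log2 difference of 0.08 between males and females (interval 0.01 to 0.15, limma adjusted p = 0.566) and Cspg4 of 0.11 (interval 0.00 to 0.21, adjusted p = 0.598). Within 1 sex none of the 10 was called for genotype, fluoxetine or lithium. The shares of all genes called within 1 sex are not given here. Whether the 10 differ from other genes in this respect therefore cannot be read from that count. The genotype difference of Pdgfra was -0.21 in males and -0.15 in females, and that of Neu4 was -0.16 in males and -0.26 in females. The test of the difference between the sexes called 0 of 10 genes, and 0% of all genes, for genotype, fluoxetine and lithium alike. Unadjusted limma p-values under 0.05 numbered 345, 1002 and 1684 among all genes in these tests. EdgeR called 0 genes in each of them, and DESeq2 called 1 for fluoxetine and 0 in the others, none of them among the 10.

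Olig2 and Neu4 had the smallest unadjusted p-values in the sex tests. Olig2 had 420.3, 453.6, 456.8 and 462.7 normalized counts in HT fluoxetine males and 392.0, 468.0, 409.2 and 420.6 in HT lithium males, against 563.6, 509.2 and 535.8 in HT vehicle males. In females it had 406.2, 612.3, 508.9 and 623.8 under fluoxetine and 490.5, 517.2 and 495.8 under lithium, against 471.9, 493.0, 435.5 and 458.1 under vehicle. Drug-treated males lay below vehicle males without overlap, while all but 1 of the drug-treated females lay within or above the range of vehicle females. How many of all genes separate like this in males is not given here, and Olig2 was picked by its p-values. The male minus female difference in log2 fold change was -0.45 for fluoxetine (interval -0.76 to -0.14, limma adjusted p = 0.779) and -0.46 for lithium (interval -0.78 to -0.13, adjusted p = 0.47), neither called. The striatal sum was high in some of these libraries, at 20736 and 23255 in fluoxetine females 2 and 4, which had the highest Olig2 among the fluoxetine females, and at 14658 and 14750 in HT vehicle males 1 and 3. HT vehicle female 4 had a striatal sum of 15827 with Olig2 at 458.1, and HT vehicle male 2 had 3212 with Olig2 at 509.2. Over the 30 libraries with group means removed, Olig2 and the striatal markers had r = 0.656 (adjusted permutation p = 0.0148). The part of striatal tissue in the Olig2 values of the sexes was not tested. For Neu4 the male minus female difference under fluoxetine was -0.27 (interval -0.48 to -0.07, adjusted p = 0.779).

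Among libraries of the same group, Olig1, Olig2, Sox10, Cspg4 and Gpr17 varied together, whereas Pdgfra and Neu4 had no correlation past the threshold with any of the 10. Over the 30 libraries, with the mean of each group removed, 13 of 45 pairs of genes were correlated at an adjusted permutation p under 0.05, 12 positively. All 10 pairs among Olig1, Olig2, Sox10, Cspg4 and Gpr17 were among these. How often pairs of other genes pass is not given here. Whether the 10 differ from other genes in this respect cannot be read from the count. Olig1 and Sox10 had the highest correlation (Pearson r = 0.84, Spearman rho = 0.874, permutation p = 1e-05 for each, the smallest that 100000 resamples gave, adjusted p = 0.00045). Without the 2 libraries farthest from the median of Olig1, the first-named gene, r was 0.807. Cspg4 and Sox10 had the lowest of the 10 (r = 0.582, rho = 0.575, adjusted permutation p of 0.0325 and 0.0346, and r = 0.569 without 2 libraries). Cspg4 also followed Tnr (r = 0.579, rho = 0.529, adjusted permutation p of 0.0145 and 0.033, and r = 0.543 without 2 libraries). C1ql1 followed Vcan (r = 0.601, adjusted permutation p = 0.0219, but rho = 0.499, adjusted p = 0.0644, and r = 0.463 without 2 libraries).

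C1ql1 and Tnr were negatively correlated (r = -0.612, rho = -0.711, adjusted permutation p of 0.0232 and 0.0018, and r = -0.449 without the 2 libraries farthest from the median). Pdgfra passed in 0 of its 9 pairs (r of 0.0121 to 0.39) and Neu4 in 0 of 9 (r of -0.209 to 0.457, the highest with Tnr, adjusted permutation p = 0.0578). Pdgfra and Neu4 had r = 0.18 with each other. Neu4 had only 188 to 313 reads per library, and how far counting noise lowered its correlations was not tested. Its low r values therefore do not show that it varies apart from the other genes. With HT vehicle female 1 and HT lithium male 4 left out, 12 of 45 pairs passed, all positive. The 10 pairs named above were again among them, and C1ql1 with Tnr and C1ql1 with Vcan were not. The points share a library in every pair, and a common change in tissue composition would enter each of them.

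**Figure D3:**
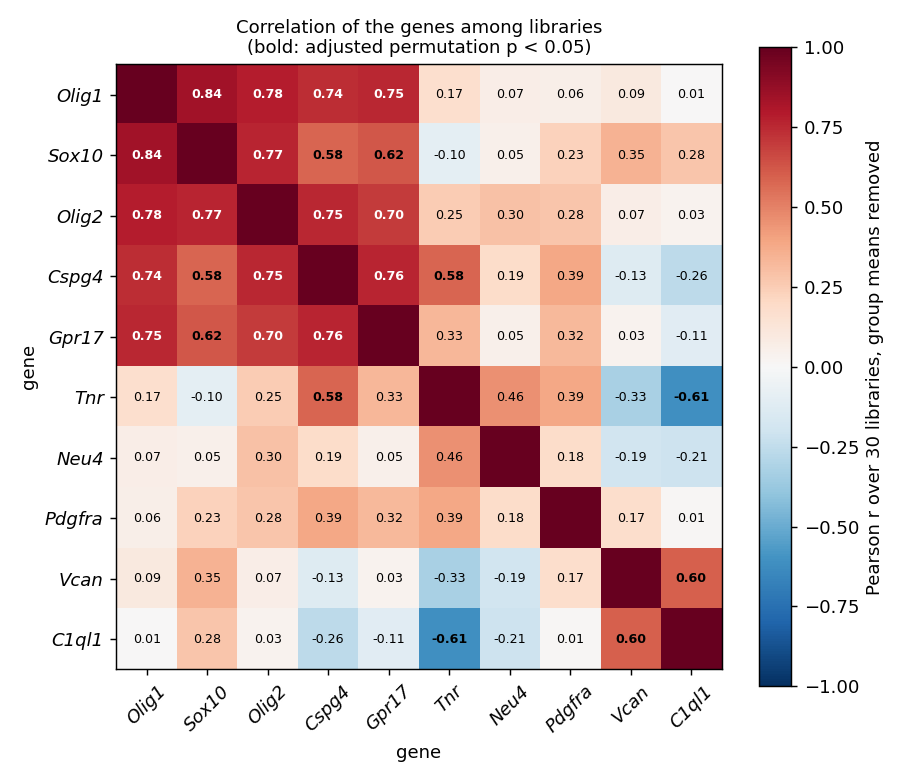
Pearson correlation of each pair of genes over 30 libraries with group means removed, from -1 (blue) to 1 (red), with bold numbers where the adjusted permutation p is under 0.05. Olig1, Sox10, Olig2, Cspg4 and Gpr17 form a block of correlated genes, and the rows of Pdgfra and Neu4 hold no bold number.

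The genes were also set against marker lists of other cells and regions, in 80 relations of the 10 genes with 8 lists that were added after the data were seen, and 28 passed an adjusted permutation p of 0.05 for Pearson's r. How often other genes pass with these lists is not given here, so the count does not set the 10 apart. Olig1 followed the myelin genes most closely (r = 0.927, rho = 0.885, adjusted permutation p of 0.0004 and 0.00107, and r = 0.916 without the 2 libraries farthest from the median). Olig2, Sox10, Cspg4 and Gpr17 had r of 0.767 to 0.806 with the myelin genes (rho 0.773 to 0.799, each adjusted permutation p at most 0.0016). Sox10 followed the genes of newly formed oligodendrocytes (r = 0.847, rho = 0.804, adjusted permutation p of 0.0004 and 0.00107, and r = 0.805 without 2 libraries). The striatal markers followed the same genes, from r = 0.814 for Olig1 (rho = 0.81, adjusted permutation p of 0.0009 and 0.0016, and r = 0.801 without 2 libraries) to r = 0.641 for Gpr17 (rho = 0.691, adjusted permutation p of 0.0132 and 0.0072, and r = 0.593 without 2 libraries).

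C1ql1 and Vcan followed the olfactory bulb and neuroblast markers most closely. For C1ql1, r was 0.79 (rho = 0.729, adjusted permutation p of 0.0008 and 0.00196, and r = 0.733 without 2 libraries), and for Vcan 0.743 (rho = 0.735, adjusted permutation p of 0.00107 and 0.0016, and r = 0.678 without 2 libraries). Both also followed the astrocyte markers (r = 0.66 for C1ql1 and 0.624 for Vcan, adjusted permutation p of 0.0132 and 0.00689) and ran against the excitatory neuron markers (r = -0.618 for C1ql1 and -0.661 for Vcan, adjusted permutation p of 0.0132 and 0.00507). Vcan further followed the genes of newly formed oligodendrocytes (r = 0.679, rho = 0.631, adjusted permutation p of 0.00291 and 0.00773, and r = 0.573 without 2 libraries). Tnr was negatively correlated with the olfactory bulb and neuroblast markers (r = -0.575, rho = -0.558, adjusted permutation p of 0.0164 and 0.0225, and r = -0.601 without 2 libraries). It was positively correlated with excitatory neuron markers (r = 0.516, rho = 0.513, adjusted permutation p of 0.0316 and 0.0286, and r = 0.726 without 2 libraries). Pdgfra passed with 0 of 8 lists (r of -0.15 to 0.364) and Neu4 with 0 of 8 (r of -0.208 to 0.152). For Neu4 the limit of few reads named above holds here too. Sox10 ran against the excitatory neuron markers (r = -0.665, adjusted permutation p = 0.00846). Cspg4 (r = -0.454) and Tnr (r = -0.535) ran against the astrocyte markers (adjusted permutation p of 0.0305 and 0.0386). With the fibroblast list, which shares Pdgfra expression, r was -0.0444 for Pdgfra. Cspg4 (r = -0.446), Gpr17 (-0.577) and Tnr (-0.586) ran against the fibroblast list (adjusted permutation p of 0.0305, 0.00997 and 0.0113). With the pericyte list no gene of the 10 passed for Pearson's r. C1ql1 passed for Spearman's rho alone with the pericyte list (rho = 0.542, adjusted permutation p = 0.0329) and with the fibroblast list (rho = 0.52, adjusted permutation p = 0.0354).

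**Figure D4:**
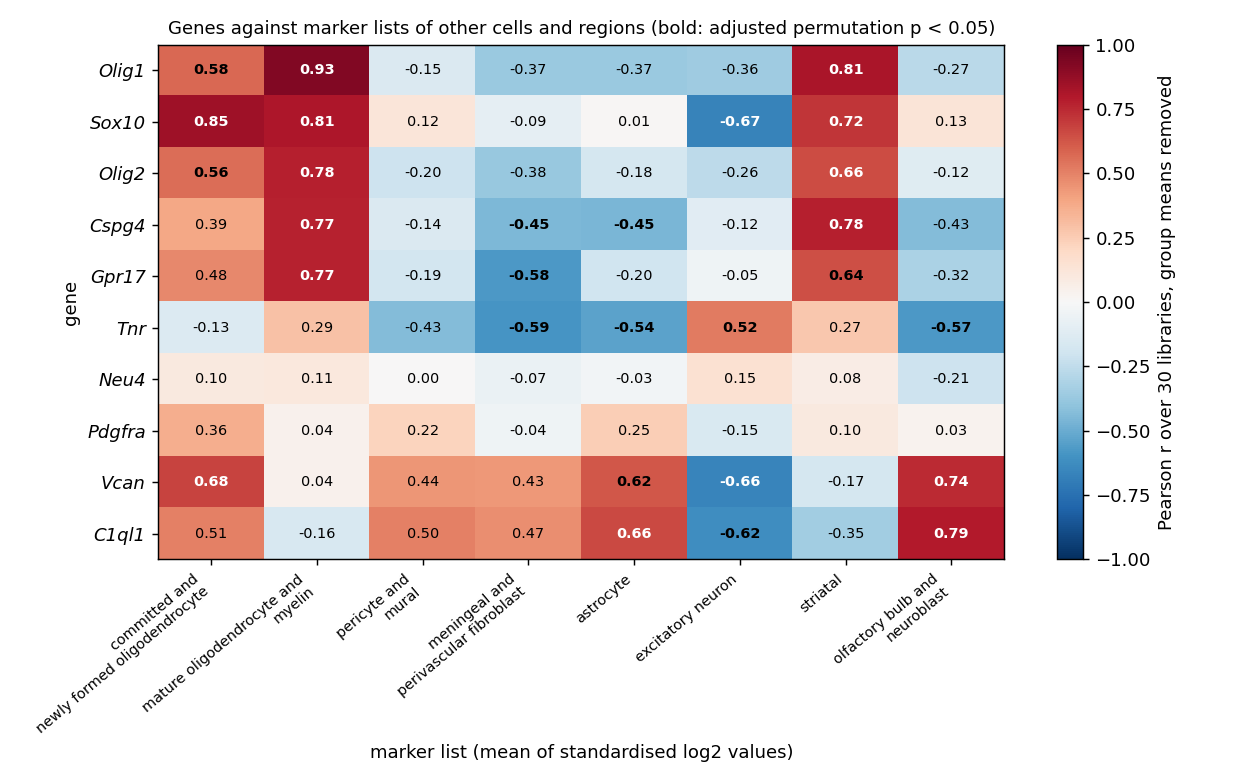
Pearson correlation of each gene (rows) with the mean standardised log2 level of 8 marker lists (columns), over 30 libraries with group means removed, with bold numbers where the adjusted permutation p is under 0.05. The myelin and striatal columns are high for Olig1, Sox10, Olig2, Cspg4 and Gpr17, the olfactory bulb column for Vcan and C1ql1, and the rows of Neu4 and Pdgfra hold no bold number.

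Outside the 10, the tested genes whose levels were most like their mean, over the same 30 libraries, included Arhgef10 (r = 0.892), Chd6 (0.881), Atxn1l (0.877) and Micall1 (0.873). These values are a description. Among the 10 themselves, r with that mean ran from 0.863 for Olig2 to 0.129 for C1ql1, with 0.531 for Pdgfra and 0.332 for Neu4. Each of the 10 is part of the mean, which raises its own r. These values therefore cannot be set beside those of the outside genes.

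The genes around this set were examined by lists. Of 16 other precursor genes, 0 were called between HT vehicle and WT vehicle (5 above 0, median log2 fold change -0.02), and 1 over all HT libraries. That gene was Megf11, which encodes a transmembrane protein with epidermal growth factor-like repeats. Megf11 averaged 447.9 ± 21.73 normalized counts in HT fluoxetine (SD, n = 8), 428.6 ± 45.1 in HT lithium (n = 7), 435 ± 43.75 in HT vehicle (n = 7) and 508.7 ± 56.5 in WT vehicle (n = 8). Its log2 fold change over all HT against WT was -0.21 (SE 0.06, limma adjusted p = 0.0434), and its ranges overlapped those of WT.

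In the growth factor pathway, 12 ligands, the beta receptor and effectors were tested. None was called between HT vehicle and WT vehicle or over all HT libraries. Pdgfa, the main ligand of the Pdgfra receptor, averaged 710.3 ± 41.26 in HT fluoxetine (SD, n = 8), 760.8 ± 83.1 in HT lithium (n = 7), 744.3 ± 36.76 in HT vehicle (n = 7) and 803.1 ± 13.97 in WT vehicle (n = 8). It was called lower in HT fluoxetine against WT (log2 fold change -0.18, SE 0.05, limma adjusted p = 0.0462), with all fluoxetine libraries (638 to 753.3) below all WT libraries (787.2 to 831.3). Over all HT libraries it had -0.12 (adjusted p = 0.0958). Shc1, an adaptor of receptor tyrosine kinases, was called higher in HT lithium against WT (0.30, SE 0.08, adjusted p = 0.0484). Pdgfb (-0.11), Pdgfc (-0.02), Pdgfd (0.18) and Pdgfrb (0.06) were not called over all HT libraries.

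Later stages of the lineage gave no call. Of 15 myelin genes, 15 had a log2 fold change above 0 between HT vehicle and WT vehicle (median 0.09) with 0 called, and 9 of 11 genes of newly formed oligodendrocytes (median 0.09) with 0 called. Between HT fluoxetine and HT vehicle 1 of 15 myelin genes was above 0 (median -0.21), and between HT lithium and HT vehicle 1 of 15 (median -0.20), again with 0 called. These medians join opposite signs in the sexes. In males 0 of 15 were above 0 for fluoxetine (median -0.48) and 0 of 15 for lithium (median -0.53), whereas in females 14 of 15 were above 0 for fluoxetine (median 0.11) and 15 of 15 for lithium (median 0.14). The test of the difference between the sexes called 0 of 15 for either drug. All 15 genes were read in the same 3 or 4 libraries per group, and the myelin sum ran 2.62-fold across the 30 libraries. The 15 signs are therefore not 15 separate observations. Shares of all genes above 0 in these drug comparisons are not given here. The myelin sum overlapped among all conditions, at 59467 to 151648 in HT fluoxetine, 84081 to 129860 in HT lithium, 70312 to 136217 in HT vehicle and 68672 to 155836 in WT vehicle libraries. Of 24 lineage transcription factors 0 were called in any of these comparisons, Sox8 and Sox9 having -0.11 and -0.01 over all HT libraries. Of 12 proliferation genes 0 were called for genotype or drug. Ccnd2, a cyclin gene, was called higher in males than in females (0.22, SE 0.03, limma adjusted p = 0.000375).

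Families of the matrix and sialidase genes were mostly without a call. Of 12 lecticans, tenascins and net partners, 1 was called lower over all HT libraries: Ncan, which encodes neurocan, a lectican like versican, averaged 7562 ± 343.3 in HT fluoxetine (SD, n = 8), 7533 ± 280.3 in HT lithium (n = 7), 7670 ± 278.8 in HT vehicle (n = 7) and 8082 ± 202.6 in WT vehicle (n = 8). It had a log2 fold change of -0.09 over all HT (SE 0.02, limma adjusted p = 0.0203), and against WT it was -0.11 under lithium (adjusted p = 0.0448). The other lecticans Bcan (0.00) and Acan (0.14) and the tenascin Tnc (0.32, SE 0.14, adjusted p = 0.29) were not called. Among 10 sialidase and polysialic acid genes, 0 were called, with -0.10 for Neu1 (adjusted p = 0.139), 0.14 for Neu3 and -0.05 for Neu2 over all HT libraries. Of the C1q-like genes and the receptor of C1ql1, 5 were tested and 0 called, C1ql2 having -0.21, C1ql3 -0.11 and the receptor gene Adgrb3 -0.09. C1ql4 was not analysed here.

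Levels of other cells that share these transcripts are given beside the genotype result. The fibroblast list, 8 genes, summed to 4182 to 7134 in HT fluoxetine, 4398 to 12409 in HT lithium, 3003 to 5448 in HT vehicle and 2626 to 6654 in WT vehicle libraries. Its median log2 fold change over all HT against WT was 0.23, with 7 of 8 genes above 0 and 0 called, whereas Pdgfra was lower. The 7 pericyte genes summed to 5812 to 6829 in HT fluoxetine, 6088 to 8860 in HT lithium, 5645 to 6818 in HT vehicle and 5462 to 7200 in WT vehicle libraries. Rgs5, a pericyte gene, was called higher over all HT libraries (0.18, SE 0.05, limma adjusted p = 0.0461) and under lithium against WT (0.23, adjusted p = 0.0414), while Cspg4 was not called. Cldn5, of endothelial cells, was called higher under lithium (0.31, adjusted p = 0.0473) and Tmem119, of microglia, under fluoxetine (0.14, adjusted p = 0.0328), both against WT. The sums of their lists, 6 genes each, overlapped with WT. The endothelial sum was 5606 to 7157 in HT lithium and 5596 to 6581 in WT vehicle libraries. The microglia sum was 7500 to 8467 in HT fluoxetine and 7345 to 8032 in WT vehicle libraries. Excitatory neuron markers were below 0 for 7 of 7 genes over all HT libraries (median -0.13) with 0 called. The part of these cells in the values of Pdgfra and Neu4 was not tested.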

How the data were processed

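Poly(A) RNA of prefrontal cortex was sequenced in 30 libraries with a stranded kit, per the labels' protocols, and each library was placed in 1 of 8 groups from its title. The labels give 1 batch. The values deposited by the authors are a gene-level signal, counts scaled by a size factor for each library. The submitters' processing notes list build GRCm38 with DESeq2 1.19.11, Salmon 0.11.2 and R 3.6.0. How strand was handled, which annotation release was used and which filters applied is not given in the sources used here. All values were whole multiples of 1 step per library, and 100% came out as whole reads within 0.01. Libraries held 23771758 to 34307061 reads, and 42 replicate pairs differed by a chi-square of 4.78 to 32.0 per degree of freedom, so each library was counted once.

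Symbols came from GENCODE M21 (18227 of 18240 genes). Limma 3.58.1 (trend, robust) in R 4.3.3 was fitted to log2(normalized count + 1) of 16824 genes with a mean of at least 10, with all 30 libraries, a mean per group and 22 residual degrees of freedom. That scale understates changes of low genes. Comparisons over both sexes average the female and male contrasts. Benjamini-Hochberg adjustment ran over all genes tested, with calls at an adjusted p under 0.05. As alternatives, edgeR 4.0.16 and DESeq2 1.42.0 were run on the recovered reads, and other pseudocounts, filters, scalings, covariates and sets of libraries were tried. Correlations used log2 values with group means removed and 100000 permutations within groups, 2-sided. Where r is given without the 2 libraries farthest from the median, the median is that of the first-named gene of a pair. Against a marker list it is that of the gene. The 2 libraries therefore differ between genes, and outlying libraries of the other variable were kept. The tests were tested on simulated data first.

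The 10 genes and the related lists were chosen with earlier results of these data known. All 10 are given in every comparison. From a related list, called genes and the family, ligands or receptors of the 10 are named, and the 5 further genes most like the mean of the 10, of which 1 is not reported here. Promoters were in the RefSeq table for 6 of the 10 genes.

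Blocks used the replicate numbers in the titles. HT lithium females numbered 1, 2 and 3 there carry 1, 3 and 4 in their library names, so their blocks are uncertain. Same-numbered HT and WT vehicle males had correlated deviations in each of 3 pairs (r of 0.17 to 0.278). Only 1 of 3 HT vehicle males was most like the WT male of its own number, so pairing there is uncertain. Same-numbered HT and WT vehicle females had r of -0.345 to 0.15. Between HT fluoxetine and HT vehicle females r was 0.413, -0.108, 0.392 and 0.446. There 3 of 4 fluoxetine libraries were most like the vehicle library of their own number. Every comparison other than HT vehicle against WT vehicle had a pair at or under 0.1 in each sex.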

Additional observations from a re-analysis of the deposited data

Results flagged for a closer look

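Within the groups of 4 libraries, a library was looked for that lay far from the other 3, by Dixon's 95% criterion on the gap over the whole range. Of 60 such groups (10 genes in 6 groups), 5 met it, where chance gives about 3. Neu4 was 230.2 normalized counts in HT lithium male 3, with the others at 237.3 to 237.5, and 325.9 in WT vehicle male 1, with the others at 268.1 to 270. Gpr17 was 1746 in HT vehicle female 3 (others 2070 to 2124). C1ql1 was 249.6 in HT lithium male 4 (others 156.3 to 162.5), the library with the highest olfactory bulb sum, 17099. Tnr was 7926 in WT vehicle female 2 (others 8895 to 9067). Without WT vehicle male 1 the log2 fold change of Neu4 was -0.17 between HT vehicle and WT vehicle (limma adjusted p = 0.118), and over all HT libraries the gene was called without it.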

How the results depend on the processing

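Over all HT against WT, 2 of 10 genes (Pdgfra and Neu4) were called under each of the 11 other settings and without each single library. For HT vehicle against WT vehicle the count of 2 became 1 with edgeR, DESeq2, no filter on low values, a mean of at least 50, only the groups compared in the fit, or the replicate block, and 0 with quantile normalization or without the 2 libraries of lowest sums. Without each single library it was 0 to 2. For HT lithium against WT vehicle the count of 2 became 1 with edgeR, quantile normalization, only the groups compared, an additive fit of group and sex, the replicate block, or without those 2 libraries, and was 1 to 3 without each single library. For HT fluoxetine against WT vehicle the count of 0 became 1 with DESeq2, where Pdgfra had an adjusted p of 0.0498. The block changed no other call of the 10 genes, and in males only it called 0 of 10, as did the fit without it. Counts of correlated pairs were 13, 12 without the 2 libraries and 13 with a pseudocount of 5.

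Of 770 log2 fold changes under other settings, 747 kept direction and side of the threshold, 16 lost the call, 1 gained it and 6 changed sign, each of the last from a value without a call. With the replicate block Sox10 had 0.0020 between HT vehicle and WT vehicle and 0.0095 over all HT, and C1ql1 -0.0093 between the drugs. Without the 2 libraries Sox10 had 0.0211 and Vcan 0.0501 between HT fluoxetine and HT vehicle, and Sox10 -0.0033 between HT lithium and WT vehicle. Leaving out 1 library also changed the sign of small values. For Sox10 the range was -0.1036 to 0.0306 between HT vehicle and WT vehicle, -0.0904 to 0.0393 for fluoxetine against HT vehicle, -0.1249 to 0.0118 for fluoxetine against WT, -0.0303 to 0.0962 for lithium against WT and -0.0863 to 0.0403 over all HT. For fluoxetine against HT vehicle it was -0.0559 to 0.0341 for Cspg4, -0.0721 to 0.0308 for Olig2 and -0.0602 to 0.0501 for Vcan. For lithium against HT vehicle it was -0.0084 to 0.0771 for Pdgfra and -0.0438 to 0.1491 for C1ql1, and for Vcan against WT -0.0943 to 0.0093. Between the drugs it was -0.0333 to 0.0522 for Pdgfra, -0.0001 to 0.0837 for Olig1 and -0.0440 to 0.1188 for C1ql1. The causes were not tested.

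Over all genes, calls between HT vehicle and WT vehicle numbered 123, and 68 with a mean of at least 50. Calls for fluoxetine against HT vehicle numbered 6, and 12 with DESeq2 and 11 with only the groups compared. They were 15 for lithium against HT vehicle, and 5 with only the groups compared, 251 for fluoxetine against WT, and 165 with a mean of at least 50, 332 for lithium against WT, and 208 with only the groups compared, and 36 between males and females, and 79 with DESeq2. Leaving out 1 library moved some of these counts by over 1.5 times. For lithium against WT it fell to 196 when HT lithium female 3 was dropped and to 219 when WT female 3 was, and reached 503 without HT lithium male 2, and over all HT, 445 in all, it was 284 without WT female 1 and 281 without WT female 3. For lithium against HT vehicle it was 8 without HT lithium female 1 and 9 without HT lithium male 3. For fluoxetine against HT vehicle it was 3 without any 1 of HT fluoxetine females 2 and 4, HT fluoxetine males 2 and 4, HT vehicle females 2 and 4 or HT vehicle males 1 and 2. Between the drugs the count of 0 became 4 without HT lithium female 1. The background shares move with these counts. Depth limits C1ql1 and Neu4 most, with 119 and 188 reads in their lowest libraries.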
